A study of Mus musculus with 31 samples.

Results

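The small-RNA-seq table held 6 passenger strands, the 3p arms of let-7 and miR-98 precursors, among its 507 miRNAs, and these 6 are described here. They were chosen by name, as the entries that begin with mmu-let-7 or mmu-miR-98 and end with 3p, and each was set beside the 5p arm of the same precursor. The cells were mouse embryonic stem cells (mESCs) of the line ES-E14TG2a, kept on gelatin in 2i + lif medium, which holds back differentiation, in 4 genotypes of 4 small-RNA libraries each. The edited lines of the study also carry a FLAG tag on both *Trim71* alleles. WT cells are labelled wild-type only, a name the study also gives to the FLAG-tagged parent line. CLIPΔ cells lacked, on both alleles, the stretch of the *Ago2* 3’UTR that the RNA-binding protein Trim71 occupies. *Ago2* KO cells carried a deletion in the coding region of *Ago2*, and *Ago2* KO/CLIPΔ cells carried this deletion together with the 3’UTR deletion. The edited cells were grown from single sorted cells, and the labels do not say how many clones the 4 libraries of a genotype represent. No treatment or time point distinguished the groups.

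A let-7 precursor is a hairpin whose ends are cut by Drosha and then Dicer, which leaves a duplex of a 5p and a 3p strand. An Argonaute protein keeps a single strand of this duplex as the guide, while the other, the passenger strand, is usually degraded. For most let-7 hairpins the 5p strand is the guide, and its seed directs the repression of pro-growth and stem cell mRNAs. In mESCs the RNA-binding protein Lin28a holds let-7 levels low by binding the precursor loop, before the strands are separated, so a change at the precursor reaches both arms, while a change in strand choice or strand stability need not.

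The mature sequences are shown because the arms differ in what they could pair with. They are the RefSeq sequences of the GRCm38.p6 assembly, written 5’ to 3’ with the seed, bases 2 to 8, in capitals. RefSeq names 12 let-7 and miR-98 3p arms with 11 distinct sequences, of which these 6 were in the table:
let-7a-1-3p: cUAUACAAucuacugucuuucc
let-7f-1-3p: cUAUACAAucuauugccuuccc
miR-98-3p: cUAUACAAcuuacuacuuuccu
let-7f-2-3p: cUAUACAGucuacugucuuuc
let-7d-3p: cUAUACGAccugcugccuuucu
let-7e-3p: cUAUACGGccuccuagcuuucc
The 5p partners of 3 of them are shown for contrast:
let-7d-5p: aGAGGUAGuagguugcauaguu
let-7e-5p: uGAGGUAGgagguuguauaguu
miR-98-5p: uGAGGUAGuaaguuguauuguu
All 9 let-7 and miR-98 5p arms in the table shared the seed GAGGUAG. The 3p arms did not share a seed. UAUACAA was common to let-7a-1-3p, let-7f-1-3p, and miR-98-3p, while let-7f-2-3p, let-7d-3p, and let-7e-3p each had a seed of their own. The other 6 RefSeq names, let-7a-2-3p, let-7b-3p, let-7c-1-3p, let-7c-2-3p, let-7g-3p, and let-7i-3p, were not analysed here.

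By their names, the 6 arms lie at 3 places in the genome. The sequence of let-7a-1-3p is also in the let-7c-2 hairpin on chromosome 15. On chromosome 13, minus strand, let-7a-1-3p (chr13:48538188-48538209), let-7f-1-3p (chr13:48537833-48537854), and let-7d-3p (chr13:48536024-48536045) lay within an exon of the non-coding gene 6720427I07Rik. let-7e-3p lay on the plus strand of chromosome 17 (chr17:17830411-17830432), within an intron of *Spaca6*. On the plus strand of the X chromosome, let-7f-2-3p (chrX:151912403-151912423) and miR-98-3p (chrX:151913287-151913308) lay within an intron of *Huwe1*, a ubiquitin ligase gene.

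Some of the 5p partners carry a limit that the 3p arms mostly do not. let-7a-5p and let-7f-5p have the same sequence in 2 hairpins each, and they were listed at a WT mean of 5.77 and 20.1 TPM (reads per length of the miRNA, scaled to a fixed total in each library), against 725 TPM for let-7d-5p, 1514 TPM for let-7e-5p, and 257 TPM for miR-98-5p, which have 1 hairpin each. Low values of such miRNAs, those under 50 reads, came out as whole reads within 0.05 reads in 100% of cases after multiplication by the number of hairpins and in 52.9% before, so their TPM is per hairpin. Reads that match several places may also have been left out, which was not tested. The level of a 3p arm relative to its 5p arm is therefore given for let-7d, let-7e, and miR-98 only, and for the other precursors the change of that balance between genotypes. let-7f-1-3p and let-7f-2-3p share the single entry let-7f-5p as partner. The sequence of let-7a-1-3p is also that of let-7c-2-3p, so its reads cannot be assigned to the let-7a-1 hairpin alone.

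The libraries differed in depth in a way that followed the *Ago2* genotype. The reads behind the values, inferred from the step between low values, ran from 3024706 to 8190831 per library in WT and CLIPΔ cells and from 807665 to 1289823 in the *Ago2* KO and *Ago2* KO/CLIPΔ cells. A read of a miRNA of 22 bases was worth 0.123 to 0.325 TPM in the former and 0.763 to 1.22 TPM in the latter. Every listed miRNA had a value above 0 in every library, so 1 read was also the lowest possible value. The libraries without *Ago2* also carry numbers where the others carry letters, so the loss of *Ago2* cannot be told apart from a difference in how these libraries were made. *Ago2* mRNA itself had a mean of 24.9 TPM in WT, 23.8 TPM in CLIPΔ, 1.95 TPM in cells with the *Ago2* coding deletion, and 2.18 TPM in those with both deletions, which fits the labels of the knockouts and is no check of the 3’UTR deletion. The 11 miRNAs of the miR-290 to miR-295 cluster, which mark mESCs, held from 43.4 to 45.8% of the TPM in WT, from 36.1 to 44.1% in CLIPΔ, from 30.1 to 33.8% in *Ago2* KO, and from 28.3 to 29.4% in *Ago2* KO/CLIPΔ libraries, and the part of this in the results below was not tested. In bulk RNA, fewer cells with a miRNA and less of it per cell cannot be told apart.

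The first comparison, CLIPΔ against WT, asks whether the passenger strands rise when Trim71 no longer binds *Ago2* mRNA. In all, 5 of the 6 3p arms were higher in CLIPΔ mESCs, and let-7a-1-3p was not called. Differences were tested with limma on log2(TPM + 1), with Benjamini-Hochberg adjustment over all 507 miRNAs and a threshold of 0.05. By this test 19.9% of all miRNAs were called higher and 6.90% lower. The median difference was 2.18 on the log2 scale over the 6 arms and 0.16 over all miRNAs.

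let-7d-3p was at 5.43, 7.24, 1.77, and 0.377 TPM in the WT libraries A to D and at 64.2, 46.7, 77.6, and 139 TPM in the CLIPΔ libraries A to D. Every CLIPΔ library lay above every WT library, and the lowest WT value, in library D, rested on 2 reads. The log2 difference was 4.34 ± 0.55 (SE, adjusted p = 0.000225), the third highest among the 507 miRNAs.

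let-7f-1-3p, from the same cluster, was at 2.11, 1.72, 0.739, and 0.566 TPM in WT and at 21.7, 18.3, 19.95, and 16.3 TPM in CLIPΔ libraries. The groups did not overlap, and the CLIPΔ libraries were within a narrow range. Its log2 difference was 3.19 ± 0.29 (SE, adjusted p = 4.67e-05). let-7a-1-3p, by name also of this cluster, was at 4.23, 0.859, 3.99, and 12.5 TPM in WT and at 5.17, 2.19, 5.24, and 23.1 TPM in CLIPΔ libraries. The groups overlapped, with library B lowest and library D highest in both genotypes. The log2 difference of 0.55 ± 0.67 (SE) was not called (adjusted p = 0.587).

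let-7e-3p was at 35.8, 29.8, 13.2, and 13.6 TPM in WT and at 95.2, 67.3, 78.1, and 79.7 TPM in CLIPΔ libraries. It was the most abundant of the 6 in WT cells, and its groups did not overlap. The log2 difference was 1.87 ± 0.34 (SE, adjusted p = 0.00221).

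On the X chromosome, miR-98-3p was at 1.06, 1.84, 0.886, and 0.566 TPM in WT and at 9.73, 15.0, 9.62, and 6.83 TPM in CLIPΔ libraries. WT library values rested on 3 to 15 reads, and the groups did not overlap. The log2 difference was 2.42 ± 0.30 (SE, adjusted p = 0.000225). let-7f-2-3p was at 7.61, 15.8, 4.34, and 2.18 TPM in WT and at 34.3, 59.99, 18.9, and 11.3 TPM in CLIPΔ libraries. Its groups overlapped, since WT library B lay above CLIPΔ library D. The log2 difference was 1.93 ± 0.58 (SE, adjusted p = 0.0292), and this call was the least stable of the 5. It was kept in 2 of 8 fits that each left out 1 library, those without WT library B or CLIPΔ library D, and in the others the adjusted p ran up to 0.0861. It was also lost after median centring (adjusted p = 0.054) and without WT libraries C and D together (log2 difference of 1.16, adjusted p = 0.189).

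**Figure D1:**
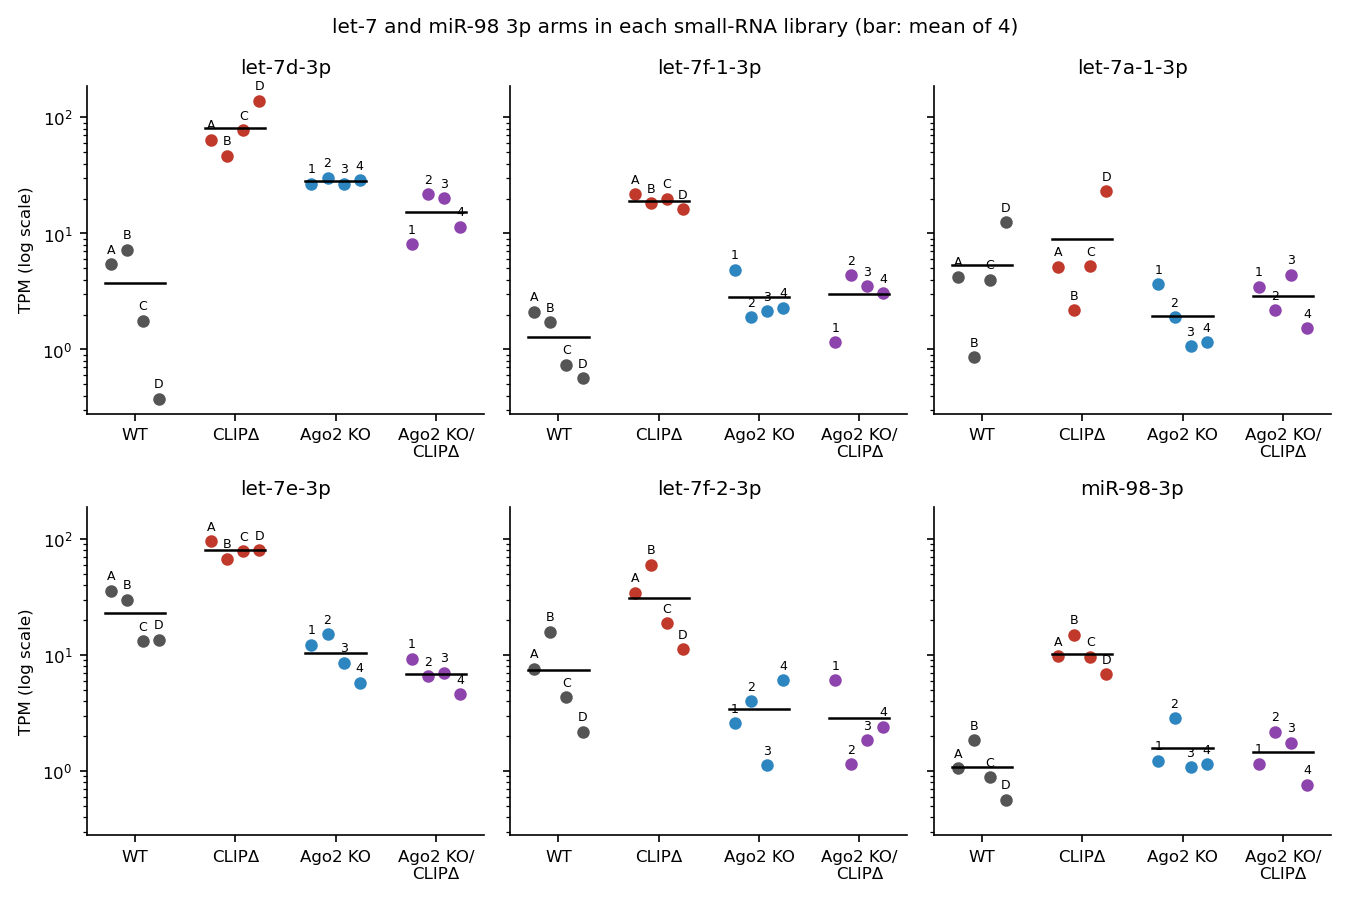
TPM of each 3p arm (log axis) in the 16 small-RNA libraries, grouped by genotype, with the library's letter or number above each point and a bar at the mean of 4 libraries. WT and CLIPΔ do not overlap for let-7d-3p, let-7f-1-3p, let-7e-3p, and miR-98-3p, and overlap for let-7f-2-3p and let-7a-1-3p. The share of all miRNAs without overlap was not counted.

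Libraries with the same letter tended to deviate together. Over all miRNAs, the deviations of a WT and a CLIPΔ library of the same letter from their group means had a correlation between 0.224 and 0.682, against a mean of -0.140 between different letters. The highest correlation between different letters was 0.2237, beside a lowest of 0.2239 for the same letter. Deviations from a group mean cancel out within the group, so positive correlations for the same letter lower the mean of the others. With the letter as a block, the let-7f-2-3p difference had an adjusted p of 1.49e-05, against 0.0292 without it, and 50.3% of all miRNAs were called. let-7a-1-3p stayed below the threshold with the block (adjusted p = 0.0789). Within letters, let-7f-2-3p was between 3.79 and 5.17 times as high in CLIPΔ as in WT libraries, a narrow range beside the spread within each genotype. The ratio for let-7a-1-3p was between 1.22 and 2.55, so CLIPΔ was the higher in each of the 4 letters. For let-7d-3p the letters did not run in parallel. The highest WT value, in library B, met the lowest CLIPΔ value, and the lowest WT value, in library D, met the highest.

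**Figure D2:**
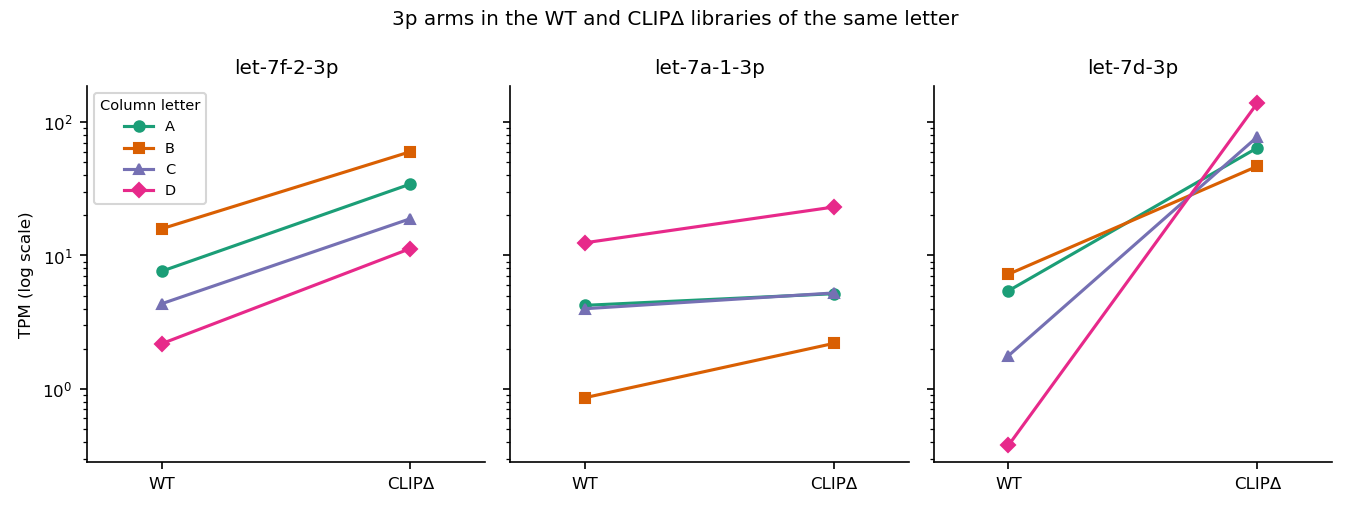
TPM (log axis) of let-7f-2-3p, let-7a-1-3p, and let-7d-3p in WT and CLIPΔ libraries, with lines joining columns of the same letter. The lines run nearly parallel for let-7f-2-3p, whose ratios lie between 3.79 and 5.17, and cross for let-7d-3p.

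The 5p arms of these precursors rose as well. let-7d-5p, let-7e-5p, miR-98-5p, let-7f-5p, and let-7a-5p were all called higher, with log2 differences of 4.35, 2.12, 3.91, 3.20, and 2.50. Thus both arms were called higher for 5 of the 6 precursors, with let-7f-1 and let-7f-2 counted on the same 5p entry. For let-7a-1 only the 5p arm was called, which does not show that the 3p arm was unchanged. Of the 167 precursors with both arms in the table, 13.2% had both arms called the same way. On the ratio of group means, which needs no pseudocount, let-7d rose 22.1-fold in the 3p and 18.1-fold in the 5p arm. The corresponding ratios were 3.47 and 4.32 for let-7e, and 9.46 and 12.6 for miR-98. let-7f-1-3p rose 14.9-fold and let-7f-2-3p 4.15-fold, beside 8.82-fold for the let-7f-5p entry they share.

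Whether the arms changed together was tested on the arm balance, the log2 ratio of 3p over 5p, with limma over the 167 precursors. In CLIPΔ against WT this called 0 of the 6 precursors and 0% of all, while 13 precursors had an unadjusted p under 0.05. The change was 0.70 ± 0.50 (SE) for let-7d, -0.19 ± 0.27 for let-7e, and -0.60 ± 0.43 for miR-98, each SE being large beside the change. The sign of the let-7d change depended on the pseudocount, which was 0 for this ratio, and was negative with 1 or 5, as it was for let-7f-1. The change of miR-98 was -2.57 with a pseudocount of 5 and was then called (adjusted p = 0.00991). let-7f-1 changed by 0.81 ± 0.33, let-7f-2 by -1.13 ± 0.48, and let-7a-1 by -1.97 ± 0.90, the lowest of all precursors. With the letter as a block, the balance of let-7a-1 (adjusted p = 0.000654) and let-7f-2 (adjusted p = 0.0188) was called, among 7.19% of all precursors, and both had shifted away from the 3p arm. let-7d, let-7e, let-7f-1, and miR-98 were not called with the block.

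**Figure D3:**
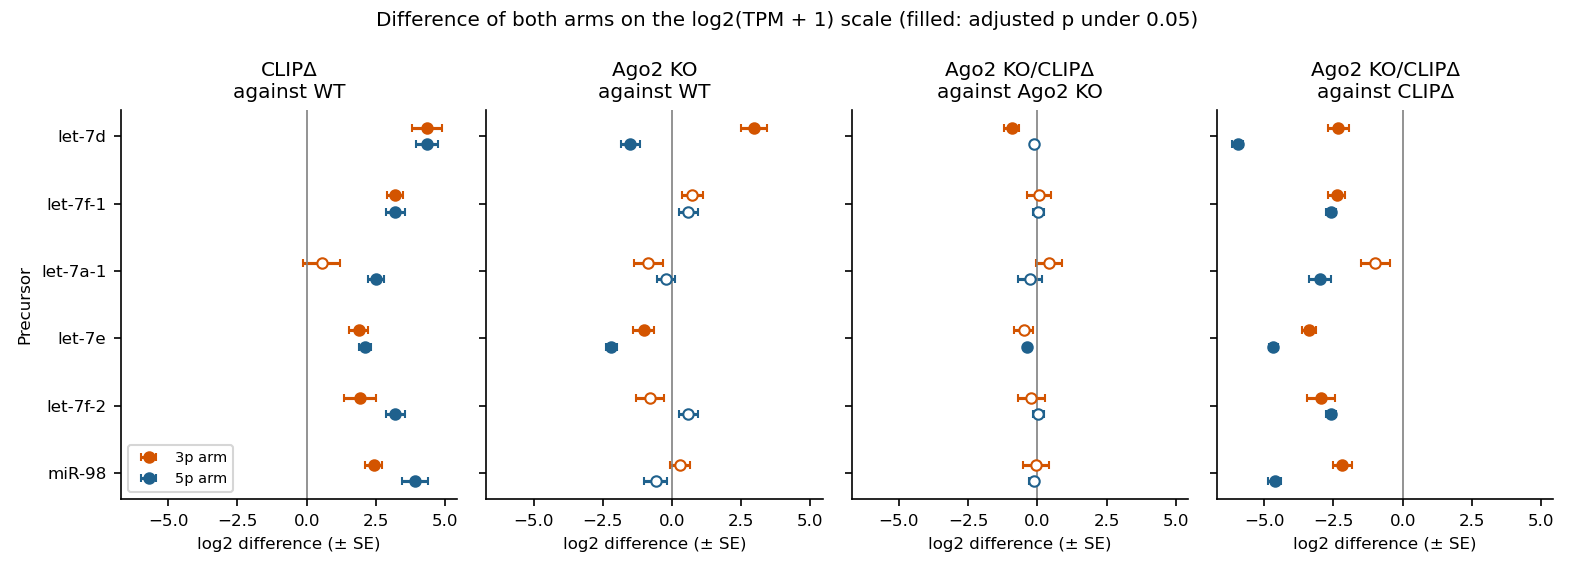
Difference of the 3p arm (orange) and the 5p arm (blue) of each precursor on the log2(TPM + 1) scale in the 4 genotype comparisons, with bars of 1 SE and filled points at an adjusted p under 0.05. In CLIPΔ against WT all differences lie above 0, and in *Ago2* KO against WT the 2 arms of let-7d lie on opposite sides, at 2.95 and -1.50.

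In *Ago2* KO against WT, which asks what the loss of *Ago2* does to each strand, the arms of let-7d separated. This comparison uses the same WT libraries as the one above. let-7d-3p was at 26.9, 30.3, 26.8, and 28.7 TPM in the *Ago2* KO libraries, all above the WT range of 0.377 to 7.24 TPM. These values rested on 22 to 32 reads per library. The log2 difference was 2.95 ± 0.47 (SE, adjusted p = 0.000103), while let-7d-5p fell by 1.50 ± 0.35 (SE, adjusted p = 0.00194), from a mean of 725 to 222 TPM. Opposite calls of this kind were made for 19.8% of all precursors, so let-7d was not alone in it.

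let-7e-3p was at 12.2, 15.2, 8.58, and 5.74 TPM in *Ago2* KO libraries, which overlapped with the WT libraries. It fell by 1.02 ± 0.38 on the log2 scale (SE, adjusted p = 0.0298) and let-7e-5p by 2.19 ± 0.19 (SE, adjusted p = 5.05e-07). The let-7e-3p call was lost without *Ago2* KO library 3 or 4 or WT library A or B (adjusted p up to 0.103) and with voom on the inferred reads (adjusted p = 0.0917). The remaining 4 arms were not called. They were at 1.07 to 6.03 TPM in *Ago2* KO libraries, which is 1 to 5 reads, and their log2 differences were 0.74 for let-7f-1-3p, 0.29 for miR-98-3p, -0.80 for let-7f-2-3p, and -0.86 for let-7a-1-3p. let-7a-1-3p was called lower without WT library B (log2 difference of -1.34, adjusted p = 0.0187), let-7f-2-3p without WT library D (-1.19, adjusted p = 0.0389), and let-7f-1-3p higher with voom (1.39, adjusted p = 0.0327).

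The background of this comparison was broad. Of all 507 miRNAs, 44.4% were called higher and 26.4% lower, with a median difference of 0.50, against 1 of 6 in each direction and a median of -0.26 for the let-7 and miR-98 3p arms. Among the scarcer arms of the 167 precursors, taken by their WT mean, 53.9% were called higher. The same WT libraries served to pick these arms and in the test, which can raise this share. A listed arm had at least 1 read in every library, which stands for more TPM in *Ago2* KO than in WT libraries. The part of this in these calls was not tested. The arm balance was called for 74.3% of precursors, 45.5% towards the 3p and 28.7% towards the 5p arm. It was called for 3 of the 6, with a shift to the 3p arm of 5.14 ± 0.50 (SE, adjusted p = 6.48e-07) for let-7d and 1.10 ± 0.34 (SE, adjusted p = 0.00922) for let-7e, and one to the 5p arm for let-7f-2, of -1.64 ± 0.55 (SE, adjusted p = 0.0152). The let-7d shift was the sixth highest of the 167, and the let-7e shift was in the middle of the range. let-7f-2 lost its call without WT library B (adjusted p = 0.0536), and let-7e without WT libraries C and D together (adjusted p = 0.0758). The change was 1.12 ± 0.69 (SE) for miR-98, 0.60 ± 0.59 for let-7f-1, and -0.84 ± 0.90 for let-7a-1, none of them called. let-7a-1 was called without WT library B (change of -1.72, adjusted p = 0.0489).

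Comparing *Ago2* KO/CLIPΔ with *Ago2* KO mESCs asks whether the 3’UTR deletion still acts on the passenger strands without *Ago2*, at a like sequencing depth. None of the 3p arms was called higher. let-7d-3p was at 8.11, 21.9, 20.2, and 11.4 TPM in the *Ago2* KO/CLIPΔ libraries, all below the *Ago2* KO libraries. It fell by 0.93 ± 0.28 on the log2 scale (SE, adjusted p = 0.0176), and 17.8% of all miRNAs were called lower and 14.4% higher. This call was kept with the library number as a block (adjusted p = 0.00559) and lost without *Ago2* KO/CLIPΔ library 1 (adjusted p = 0.0538), without library 4 (adjusted p = 0.05004), and in a fit over all 16 libraries (adjusted p = 0.202). let-7d-5p did not pass the test, with a difference of -0.11 ± 0.13 (SE).

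The other 5 arms differed by -0.50 (let-7e-3p), -0.21 (let-7f-2-3p), -0.05 (miR-98-3p), 0.07 (let-7f-1-3p), and 0.42 (let-7a-1-3p) on the log2 scale, none of them called. let-7e-3p was at 9.26, 6.56, 7.04, and 4.58 TPM in the *Ago2* KO/CLIPΔ libraries, within 6 to 8 reads, and let-7e-5p fell by 0.36 (adjusted p = 0.0408). The let-7e-5p call was lost in the fit over all 16 libraries (adjusted p = 0.219) and without *Ago2* KO library 1 or 2 or *Ago2* KO/CLIPΔ library 3 or 4 (adjusted p up to 0.1099). For let-7f-1-3p, let-7f-2-3p, let-7a-1-3p, and miR-98-3p, the *Ago2* KO/CLIPΔ values of 0.763 to 6.08 TPM were 1 to 5 reads, so differences of a few reads were not detectable at this depth. The arm balance was called for 0 of 6 precursors and 0% of all, with 6 precursors at an unadjusted p under 0.05.

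In *Ago2* KO/CLIPΔ against CLIPΔ mESCs, 5 of the 6 3p arms were lower. The log2 difference was -3.39 ± 0.25 (SE, adjusted p = 5.94e-08) for let-7e-3p, -2.95 ± 0.50 (SE, adjusted p = 0.000143) for let-7f-2-3p, and -2.39 ± 0.32 (SE, adjusted p = 2.11e-05) for let-7f-1-3p. It was -2.32 ± 0.37 (SE, adjusted p = 9.15e-05) for let-7d-3p and -2.18 ± 0.34 (SE, adjusted p = 7.78e-05) for miR-98-3p. No library of these 5 arms in the *Ago2* KO/CLIPΔ group reached the lowest CLIPΔ library. How common this was among all miRNAs was not counted, so whether it is particular to these arms is not known. let-7a-1-3p differed by -0.98 (adjusted p = 0.118), and was called without CLIPΔ library B (-1.39, adjusted p = 0.0244). In this comparison 33.7% of all miRNAs were called lower and 40.0% higher.

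All 5p partners were lower too, with log2 differences of -5.96 for let-7d-5p, -4.67 for let-7e-5p, -4.62 for miR-98-5p, -2.98 for let-7a-5p, and -2.58 for let-7f-5p. Both arms were thus called lower for 5 of the 6 precursors, where both were called the same way for 38.3% of all. For let-7d and let-7e, the 5p arm was thus reduced more than the 3p arm. For miR-98 this cannot be told, for the reason given below. The arm balance had shifted to the 3p arm by 3.56 ± 0.36 (SE, adjusted p = 1.63e-06) for let-7d, 1.10 ± 0.26 (SE, adjusted p = 0.00195) for let-7e, 1.77 ± 0.45 (SE, adjusted p = 0.00319) for miR-98, and 2.17 ± 0.67 (SE, adjusted p = 0.0104) for let-7a-1. These are 4 of 6 precursors, beside 49.1% of all precursors called in this direction, 29.3% in the other, and 78.4% in either. In *Ago2* KO/CLIPΔ libraries the miR-98 shift rested on 1 to 2 reads of the 3p arm and the let-7a-1 shift on 2 to 5. Only miRNAs above 0 in every library were listed, so 1 read was the least possible. In libraries 1 and 4 that 1 read was 0.746 and 0.752% of both miR-98 arms, above the highest CLIPΔ share of 0.397%. The direction of the miR-98 shift was thus fixed by depth and says nothing about its strands. let-7f-1 and let-7f-2 were not called, with changes of -0.18 and -0.83. With a pseudocount of 5 let-7f-1 was called with the opposite sign (0.83, adjusted p = 0.00192), and let-7f-2 was called without *Ago2* KO/CLIPΔ library 1 (-1.32, adjusted p = 0.0483).

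**Figure D4:**
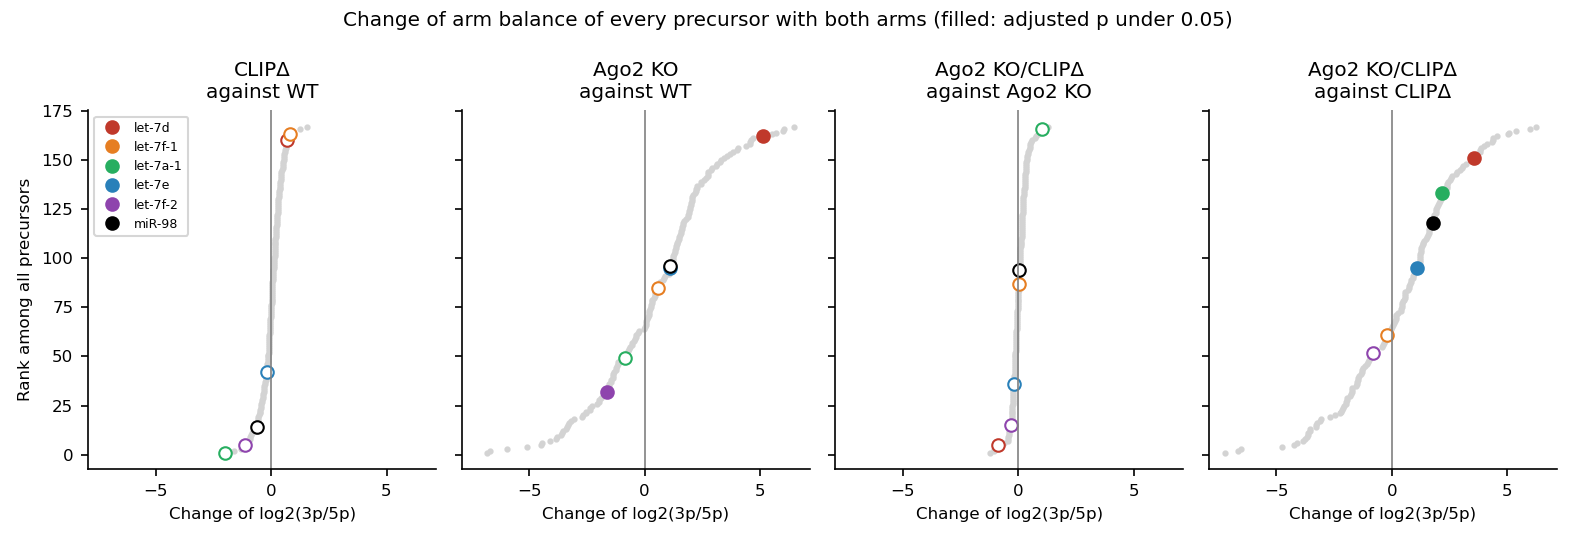
Change of the log2 ratio of 3p over 5p (horizontal axis) for all 167 precursors with both arms in the table, ordered by that change (vertical axis, rank), with the 6 precursors in colour and filled at an adjusted p under 0.05. Comparisons between cells with and without *Ago2* spread from below -5 to above 5, and let-7d sits near the upper end in *Ago2* KO against WT, at 5.14, where the filled let-7e point at 1.10 lies under that of miR-98 at 1.12.

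The difference between the effects of the 3’UTR deletion with and without *Ago2* was tested as an interaction in all 16 libraries. It was called for 5 of the 6 3p arms, with values of -5.27 ± 0.65 (let-7d-3p), -3.12 ± 0.48 (let-7f-1-3p), -2.47 ± 0.47 (miR-98-3p), -2.37 ± 0.47 (let-7e-3p), and -2.15 ± 0.77 (let-7f-2-3p, all SE, on the log2 scale), beside 25.6% of all miRNAs called in this direction. let-7d-3p had the lowest value of all 507 miRNAs. let-7f-2-3p had an adjusted p of 0.0311 and was kept in 8 of 16 fits that each left out 1 library. let-7a-1-3p was at -0.12 ± 0.81 (SE). On the arm balance, the interaction was called for 0 of the 6 precursors and 0% of all, with 9 precursors at an unadjusted p under 0.05.

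The share of the 3p arm in the sum of both arms shows the same balance on a direct scale, which the scaling of a library cannot move. For let-7d it was 0.537, 0.618, 0.450, and 0.111% in WT libraries A to D and 0.541, 0.478, 0.541, and 0.819% in CLIPΔ libraries. In *Ago2* KO libraries 1 to 4 it was 11.7, 11.5, 11.0, and 10.9%, and in *Ago2* KO/CLIPΔ libraries 3.26, 8.58, 9.75, and 6.30%. Every library without *Ago2* lay above every library with it, and every *Ago2* KO/CLIPΔ library below every *Ago2* KO library. The mean share was 0.429% ± 0.223 (SD, n = 4) in WT and 11.3% ± 0.373 (SD, n = 4) in *Ago2* KO, a 26.3-fold ratio (exact two-sided permutation test, p = 0.0286). This is the smallest p that 4 against 4 libraries allow, and 7 of the 24 share comparisons made, 6 precursors in 4 genotype pairs, reached it.

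For let-7e the share was 1.43% ± 0.407 (SD, n = 4) in WT, 1.22% ± 0.125 in CLIPΔ, 3.03% ± 0.822 in *Ago2* KO, and 2.63% ± 0.630 in *Ago2* KO/CLIPΔ. The WT libraries A and B, at 1.79 and 1.78%, stood above C and D, at 1.10 and 1.06%. *Ago2* KO lay above WT and *Ago2* KO/CLIPΔ above CLIPΔ without overlap (exact permutation test, p = 0.0286 for each). For miR-98 the share was 0.505% ± 0.210 (SD, n = 4) in WT, 0.317% ± 0.0626 in CLIPΔ, 1.10% ± 0.546 in *Ago2* KO, and 1.12% ± 0.428 in *Ago2* KO/CLIPΔ. Here the libraries without *Ago2* held 1 to 3 reads of miR-98-3p, and their Wilson intervals at 95%, which cover counting error only and treat reads as independent molecules, ran from 0.130 to 5.48%. Those with 1 read, the least possible, were at 0.735% or more, above every CLIPΔ library. CLIPΔ against WT gave exact p-values of 0.314, 0.371, and 0.143 for the share of let-7d, let-7e, and miR-98. The let-7f-1 share, whose level is uncertain, went from 5.81 to 9.70% without overlap (exact permutation test, p = 0.0286), and this was the only one of the 6 CLIPΔ against WT share comparisons to reach the smallest p.

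**Figure D5:**
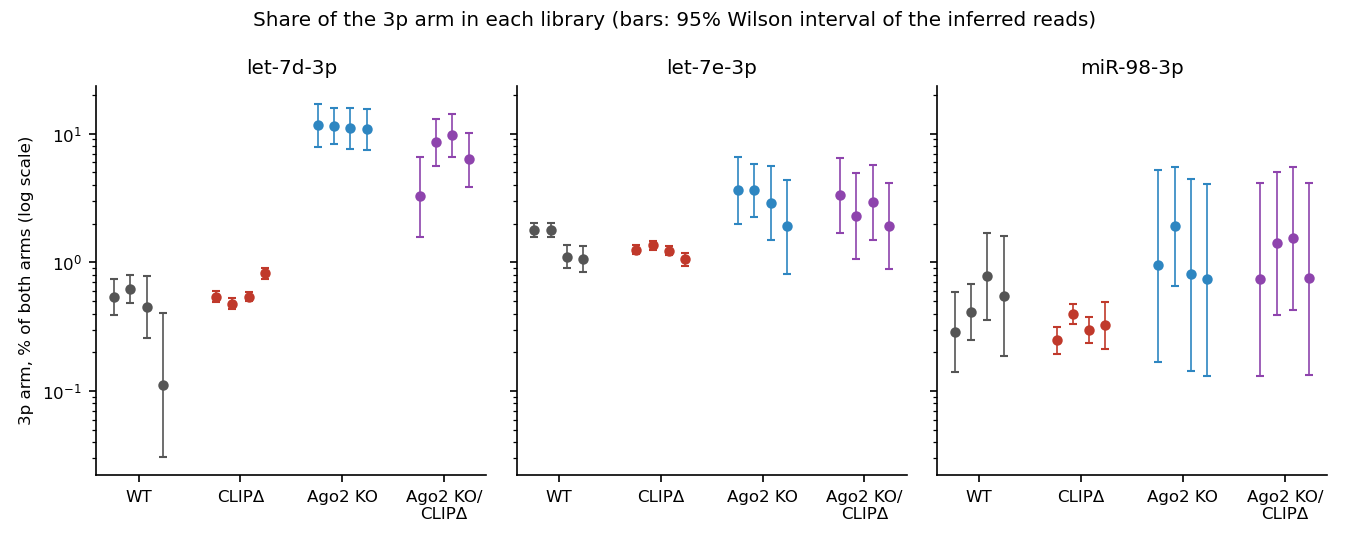
Share of the 3p arm in the sum of both arms (%, log axis) in each library for the 3 precursors whose 5p arm has 1 hairpin, with 95% Wilson intervals of the inferred reads as bars. The let-7d share is below 1% in all 8 libraries with *Ago2* and between 3.26 and 11.7% in all 8 without it.

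The order of the 3p arms by level changed with genotype. In WT cells it was let-7e-3p (23.1 TPM), let-7f-2-3p (7.49 TPM), let-7a-1-3p (5.38 TPM), let-7d-3p (3.71 TPM), let-7f-1-3p (1.28 TPM), and miR-98-3p (1.09 TPM), and each neighbouring pair overlapped. In CLIPΔ cells let-7d-3p (81.8 TPM) and let-7e-3p (80.1 TPM) were highest and overlapped. let-7f-2-3p (31.1 TPM) lay below let-7e-3p without overlap and overlapped with let-7d-3p, which was at 46.7 TPM in library B, and with let-7f-1-3p (19.1 TPM). miR-98-3p (10.3 TPM) lay below let-7f-1-3p without overlap and overlapped with let-7a-1-3p (8.92 TPM). In *Ago2* KO cells let-7d-3p (28.2 TPM) was above let-7e-3p (10.4 TPM) without overlap, and all lower neighbours overlapped. In *Ago2* KO/CLIPΔ cells let-7d-3p (15.4 TPM) and let-7e-3p (6.86 TPM) overlapped, and let-7e-3p was above let-7f-1-3p (3.03 TPM) without overlap. The summed level of the 6 arms was 42.0 TPM ± 17.1 (SD, n = 4) in WT, 231 TPM ± 31.4 in CLIPΔ, 48.4 TPM ± 6.78 in *Ago2* KO, and 32.5 TPM ± 7.32 in *Ago2* KO/CLIPΔ.

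Outside the family, the 5 miRNAs whose 4 genotype means lay nearest to the median pattern of the 6 arms were miR-297b-5p, miR-466m-3p, miR-7075-3p, miR-669f-3p, and miR-5114. Likeness was the root mean square difference of the log2 means over the 4 genotypes, each miRNA centred on its own average, and ran from 0.29 to 0.37 for these 5, while the 6 arms themselves were at 0.23 to 1.14. miR-297b-5p had means of 32.0 TPM in WT, 116 TPM in CLIPΔ, 17.6 TPM in *Ago2* KO, and 17.5 TPM in *Ago2* KO/CLIPΔ. miR-297b-5p, miR-466m-3p, and miR-669f-3p belong to repeated miRNA families, and their values are uncertain where near-identical copies share reads.

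The genes that mature let-7 were followed in the RNA-seq of the same genotypes, with 2 libraries each for WT and CLIPΔ and 4 for either genotype that lacks *Ago2*. Of 17 such genes, 15 were tested in CLIPΔ against WT, and none passed limma's test, where 0% of 11642 genes did and 604 had an unadjusted p under 0.05. *Lin28a*, which blocks let-7 maturation, was at 104 and 108 TPM in WT and at 44.6 and 72.1 TPM in CLIPΔ libraries. The log2 difference of -0.88 ± 0.26 (SE) was not called (adjusted p = 0.814). The groups did not overlap, which also held for *Dicer1*, *Drosha*, and *Xpo5*. The share of all genes without overlap was not counted. *Dicer1*, which cuts the precursor, differed by -0.44, *Drosha* by -0.17, and *Xpo5*, the exporter of precursors, by -0.09 on the log2 scale.

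In *Ago2* KO against WT, 14 of these genes were tested, of which 8 were lower and 1 was higher, beside 43.5% of all genes called lower and 14.1% higher and a median difference of -0.26. *Ago2* fell by 3.13 (adjusted p = 0.000128), *Dicer1* by 1.16 (adjusted p = 0.000216), the uridylyl transferase genes *Tut7* by 1.11 (adjusted p = 0.000250) and *Tut4* by 1.07 (adjusted p = 0.000403) and the Microprocessor gene *Dgcr8* by 0.93 (adjusted p = 0.0133) on the log2 scale. *Ago1*, *Dis3l2*, and *Trim71* were also lower, of which *Dis3l2* (adjusted p = 0.0587) and *Trim71* (adjusted p = 0.164) lost the call with a block on the library number, and *Tarbp2*, a Dicer partner, was higher by 0.65 (adjusted p = 0.00251). *Lin28a*, *Drosha*, *Xpo5*, *Prkra*, and *Khsrp* did not pass the test. *Ago3*, *Ago4*, and *Lin28b* had means under 1 TPM in the libraries of this comparison and were not tested. *Ago2* KO/CLIPΔ differed from *Ago2* KO in 0 of 14 of these genes, where 3.22% of all genes were called, and from CLIPΔ in 7, of which 6 were lower, where 47.9% were called.

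The host genes *Huwe1* and *Spaca6* were not called in CLIPΔ against WT, where 0% of 11642 genes were called with 2 libraries per genotype. This does not show that they were unchanged. In CLIPΔ against WT, *Huwe1*, the host of let-7f-2 and miR-98, differed by -0.35 ± 0.19 (SE, adjusted p = 1.00) and *Spaca6*, the host of let-7e, by -0.12 ± 0.28 on the log2 scale. In *Ago2* KO against WT, *Huwe1* fell by 0.94 (adjusted p = 0.000302) and *Spaca6* by 0.76 (adjusted p = 0.00941). 6720427I07Rik, the host of let-7a-1, let-7f-1, and let-7d, was not analysed here. Of the mESC markers *Pou5f1*, *Nanog*, *Zfp42*, *Esrrb*, *Klf4*, and *Tfcp2l1*, 0 of 6 were called in CLIPΔ against WT. With 2 libraries per genotype this does not show that they were unchanged either. *Pou5f1* was at 2313 TPM or more in every library. *Klf4* was lower and *Pou5f1* higher in *Ago2* KO against WT, calls that a block on the library number ended (adjusted p = 0.0515 and 0.364). In that fit the *Ago2* KO libraries whose number WT lacks add nothing to the difference. With this block *Klf4* was called lower in CLIPΔ against WT (log2 difference of -0.57, adjusted p = 0.0456). In *Ago2* KO/CLIPΔ against CLIPΔ, where 47.9% of all genes were called, *Nanog* (log2 difference of -0.59, adjusted p = 0.0108) and *Tfcp2l1* (-0.55, adjusted p = 0.0328) were lower. *Pou5f1* was higher there (0.30, adjusted p = 0.0484). The block kept the calls of *Nanog* (adjusted p = 0.0479) and *Tfcp2l1* (adjusted p = 0.0248) and not that of *Pou5f1* (adjusted p = 0.130). Pairing by number is not established in RNA-seq, and the share of all genes called with the block is not given. Of the early lineage markers *T*, *Gata4*, and *Sox17*, which reached the filter, 0 of 3 were called in CLIPΔ against WT. *T* was lower in *Ago2* KO against WT. *Sox17* was lower in *Ago2* KO/CLIPΔ against *Ago2* KO (log2 difference of -0.43, adjusted p = 0.0289), where 3.22% of all genes were called. Their part in the let-7 and miR-98 values was not tested.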

How the data were processed

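The members and gene lists were chosen with earlier results of these data known. The authors trimmed small-RNA reads, aligned them to mm10 using HISAT2 2.1.0, ran HTSeq for counting, and deposited 1 column of TPM per library for small RNA (507 miRNAs) and mRNA. CLIPΔ columns carry a code and were identified by elimination. The values deposited hold no counts, so reads were worked out from the smallest steps in each library and RefSeq mature lengths, for 442 matched miRNAs. Group differences used limma 3.58.1 (lmFit, eBayes with trend, R 4.3.3) on log2(TPM + 1) over all miRNAs, or on log2(3p/5p) over 167 precursors, with the trend on the scarcer arm, Benjamini-Hochberg adjustment, and a threshold of 0.05. RNA-seq genes entered a fit when they averaged 1 TPM or more. Fold changes on log2(TPM + 1) understate those of low miRNAs. Means are given ± SE for fitted differences and ± SD for groups. 3p shares were compared by exact two-sided permutation tests (scipy 1.17.1).

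Named were all 6 members with their 5p arms, the 5 nearest patterns, and the fixed lists of maturation, host, and marker genes. *Spaca6* and 6720427I07Rik were added as hosts after the values were seen. WT and CLIPΔ small-RNA libraries of the same letter, and *Ago2* KO and *Ago2* KO/CLIPΔ libraries of the same number, had correlated deviations (0.224 to 0.682 and 0.100 to 0.218), above 0.1 in every pair, so small-RNA fits with this replicate block are given where they change a call. Pairs of different letter or number reached 0.2237 and 0.155, the latter above the lowest pair of the same number. The pairing is thus uncertain, most of all without *Ago2*. In RNA-seq, WT shares only 2 numbers with the other genotypes, which does not establish pairing. The labels do not say that such libraries were handled together. They call the libraries biological replicates, and p-values measure the spread between them. The fits of levels were tried on simulated normal values on the log2(TPM + 1) scale, without read counts, depth differences, or arm ratios. That trial is therefore no check for arms with few reads. Alternatives were other pseudocounts, filters and scalings, voom on inferred reads, a fit over all 16 libraries, and leaving out each library. Added after seeing the data were a trend on the mean ratio and a fit without WT libraries C and D, whose let-7 values were lower than those of A and B. The CLIP-seq peaks were not used here.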

Additional observations from a re-analysis of the deposited data

Results flagged for a closer look

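Within groups of 4 libraries, 3 values stood apart by Dixon's test at the 95% level, of 24 groups examined, and chance gives about 1 in 20 groups. They were let-7a-1-3p at 23.1 TPM in CLIPΔ library D, let-7f-1-3p at 4.89 TPM in *Ago2* KO library 1, and miR-98-3p at 2.85 TPM in *Ago2* KO library 2. The last 2 rested on 4 and 3 reads. let-7a-1-3p was also highest in library D among the WT libraries, at 12.5 TPM.

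The effect of the 3’UTR deletion differed with and without *Ago2*, by the interaction term of limma, for 5 arms. Of all miRNAs, 25.6% were called with a negative term. The let-7f-2-3p call was kept in 8 of 16 fits that each left out 1 library. The difference between the effects on the log2 scale was -5.27 for let-7d-3p, -3.12 for let-7f-1-3p, -2.47 for miR-98-3p, -2.37 for let-7e-3p, and -2.15 for let-7f-2-3p.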

How the results depend on the processing

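The count of 3p arms called moved by over 1.5 times in few settings. In *Ago2* KO/CLIPΔ against *Ago2* KO it was 0 in place of 1 with all 16 libraries in 1 fit, and from 0 to 1 when 1 library was left out. In *Ago2* KO against WT it was between 1 and 3 when 1 library was left out. The interaction gave 3 in place of 5 for miRNAs with a mean of at least 10 TPM, where fewer arms were tested. In CLIPΔ against WT the count was 4 or 5 in every leave-one-out fit. The arm balance in CLIPΔ against WT was called for 2 precursors with the replicate block and for 1, miR-98, with a pseudocount of 5, in place of 0, and its interaction for 1, also miR-98, with a pseudocount of 5. In *Ago2* KO/CLIPΔ against CLIPΔ it was called for 2, in place of 4, when both arms had to reach a mean of 10 TPM, and for 4 or 5 when 1 library was left out. With a pseudocount of 5 the change of let-7f-1 in this comparison turned from -0.18 to 0.83 and was called, and the cause was not tested. The miR-98 shift in *Ago2* KO against WT was called with the trend on the mean ratio (adjusted p = 0.0286). By inferred reads, the let-7f-1 share differed by 2.104 points between CLIPΔ and WT in place of 3.89, since let-7f-5p has 2 hairpins and its TPM is per hairpin. The maturation genes gave 1 call in place of 0 without a filter in *Ago2* KO/CLIPΔ against *Ago2* KO, from 0 to 1 when 1 library was left out in CLIPΔ against WT, and from 2 to 7 in *Ago2* KO/CLIPΔ against CLIPΔ. For RNA-seq, WT and CLIPΔ share only 2 numbers, and the block called none of these genes there. In *Ago2* KO against WT the block on 2 shared numbers called 7 of the maturation genes in place of 9, without *Dis3l2* and *Trim71*, and 0 of the mESC markers in place of 2. *Ago2* KO libraries whose number WT lacks add nothing to that fit, so these calls were lost with fewer usable libraries. The block moved no other let-7 or miR-98 3p arm past the threshold. Of the differences that were not called, 66 values turned their sign in an alternative, 17 of them in settings other than leaving out 1 library. No paired fit was made between cells with and without *Ago2* in small RNA, whose libraries share no letter or number. Depth limits the arms other than let-7d-3p and let-7e-3p in cells without *Ago2*, where they held 1 to 5 reads per library.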
